A study of Arabidopsis thaliana with 40 samples.

Results

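The 7 genes described here code for enzymes that carry pyruvate into ethanol or lactate, or that oxidise acetaldehyde, in Arabidopsis thaliana. They are alcohol dehydrogenase 1 (ADH1, AT1G77120), the 4 pyruvate decarboxylases PDC1 (AT4G33070), PDC2 (AT5G54960), PDC3 (AT5G01330) and PDC4 (AT5G01320), lactate dehydrogenase (LDH, AT4G17260) and the mitochondrial aldehyde dehydrogenase ALDH2B7 (AT1G23800). They were taken by locus, for the reactions their enzymes catalyse, from the 33592 genes of the count tables, at a time when results of these data were already known. Submergence was applied to whole seedlings, 9 days old, for 3 h in the dark, and the control seedlings were kept for 3 h in the dark without submergence. The genotypes were the wild type Col-0 and K48M, a line in Col-0 that overexpresses SnRK1.1 (KIN10, AT3G01090) with the amino acid change K48M; the promoter of that transgene is not given in the sources used here. From each genotype and condition, total mRNA and heavy-polysome mRNA (transcripts carrying many ribosomes) were sequenced in 2 libraries, which gives 8 groups and 16 libraries with read counts. Another 24 samples of the series, of i4g1-2, 4A-15 and more Col-0 seedlings (the series' text speaks of mutants of eIFiso4G1, a translation initiation factor), enter only through the authors' deposited fold changes.

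When oxygen runs out, mitochondria cannot reoxidise NADH, and glycolysis goes on only if NAD+ is regenerated in the cytosol. Pyruvate decarboxylase turns pyruvate into acetaldehyde and alcohol dehydrogenase reduces acetaldehyde to ethanol with NADH; lactate dehydrogenase reduces pyruvate to lactate directly. ADH1 and PDC1 are classic low-oxygen genes of plants, and the aldehyde dehydrogenase can oxidise acetaldehyde to acetate.

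A conflict of labels bears on the K48M total libraries. The replicate 2 library titled dark has a column header that says submergence, and the replicate 2 library titled submerged has a header that says control. Both were left out of the tests, which therefore rest on 14 libraries with 1 library in each K48M total group; their values are given beside the others for each of the 7 genes. In the library titled dark, ADH1 had 5554 reads, and in the one titled submerged it had 152 reads, against 82 to 264 reads in the 7 other libraries labelled dark and 6526 to 15518 reads in the 7 other submerged ones.

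The libraries held 3749306 to 6768995 gene reads, of which ribosomal RNA genes took 0.874% to 38.119%, the most in Col-0 polysome dark replicate 1. KIN10, which checks the overexpression in K48M, had 27 to 37.6 CPM (read counts scaled to the TMM-adjusted library total) in Col-0 total RNA and 1205 to 1587 CPM in K48M total RNA. In polysome RNA KIN10 had 28.5 to 31.2 CPM in Col-0 and 242 to 419 CPM in K48M. Read counts per gene do not show the amino acid change. The 4 shoot and 5 root markers were detected in each of the 14 libraries. The summed shoot markers were at 33589 to 50383 CPM in the dark libraries of replicate 1 and 18960 to 40324 CPM in its submerged libraries, and at 17159 to 25897 and 13264 to 17585 CPM in replicate 2. The summed root markers were at 2818 to 3926 CPM in the dark and 1671 to 2785 CPM under water in replicate 1, and at 2190 to 2650 and 850.0 to 1454 CPM in replicate 2; their part in the results was not tested. Most of each root sum was the marker PYK10, with 2681 of 2818 CPM in Col-0 total dark replicate 1. In whole seedlings, a change in the share of a cell type and a change in mRNA per cell cannot be told apart.

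The sequences upstream of ADH1, PDC1, PDC2 and LDH are shown because these are the members called higher under water in at least 3 of the 4 comparisons. They are the 250 bases before the annotated gene start in RefSeq TAIR10.1, written 5′ to 3′ on the gene's strand, with 3 motifs in capitals: AAACCA, the GT motif core of the anaerobic response element defined in maize Adh1, CACGTG, the G-box, and GCCCC, the GC motif core of the same maize element. Both strands were searched. ADH1 lies at chr1:28975255-28977417 on the plus strand with 7 exons, PDC1 at chr4:15952257-15954803 on the minus strand with 5 exons, PDC2 at chr5:22310553-22312832 on the minus strand with 1 exon and LDH at chr4:9673897-9675540 on the plus strand with 2 exons.
ADH1, chr1:28975005-28975254: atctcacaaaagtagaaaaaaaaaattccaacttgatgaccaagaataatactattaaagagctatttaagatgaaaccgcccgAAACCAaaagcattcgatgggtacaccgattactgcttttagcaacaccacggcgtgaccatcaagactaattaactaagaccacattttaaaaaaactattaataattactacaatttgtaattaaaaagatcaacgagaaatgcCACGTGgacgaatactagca
PDC1, chr4:15954804-15955053: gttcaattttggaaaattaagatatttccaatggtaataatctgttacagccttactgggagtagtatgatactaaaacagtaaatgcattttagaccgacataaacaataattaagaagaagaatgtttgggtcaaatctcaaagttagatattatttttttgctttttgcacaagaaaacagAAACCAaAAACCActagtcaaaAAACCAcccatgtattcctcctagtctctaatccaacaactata
PDC2, chr5:22312833-22313082: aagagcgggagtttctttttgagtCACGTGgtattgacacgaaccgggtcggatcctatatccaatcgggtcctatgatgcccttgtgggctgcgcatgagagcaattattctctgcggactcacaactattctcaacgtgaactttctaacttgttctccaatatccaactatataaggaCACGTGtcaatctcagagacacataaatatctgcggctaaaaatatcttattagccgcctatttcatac
LDH, chr4:9673647-9673896: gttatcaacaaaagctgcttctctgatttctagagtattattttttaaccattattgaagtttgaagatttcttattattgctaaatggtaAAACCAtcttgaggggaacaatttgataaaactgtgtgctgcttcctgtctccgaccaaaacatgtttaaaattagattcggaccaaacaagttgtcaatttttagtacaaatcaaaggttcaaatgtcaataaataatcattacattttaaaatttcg

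The ADH1 stretch held 1 AAACCA, which began 166 bases before the start, and 1 CACGTG, which began 20 bases before it. The PDC1 stretch held 3 AAACCA in a row, which began 66, 59 and 44 bases before the start, and no CACGTG. PDC2 had 2 CACGTG, at 226 and 69 bases, and no AAACCA, and LDH had 1 AAACCA at 159 bases. The upstream stretches of PDC3, PDC4 and ALDH2B7 held none of these letters, and GCCCC was in none of the 7. Among 27443 upstream stretches of nuclear protein-coding genes of the same length, 27.3% held AAACCA, 6.5% held CACGTG and 4.6% held GCCCC. A match of letters is a description of the sequence, and nothing was measured on these stretches.

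On the ethanol side, the mRNAs of ADH1 and PDC1 were among the abundant ones under water and ranked lower in the dark. Levels between genes are compared as RPKM (CPM, with library sizes scaled by TMM, per kilobase of the gene model). ADH1 in Col-0 total RNA was at 31.1 and 19.4 RPKM in the dark and at 1001 and 1113 RPKM after submergence. In Col-0 polysome RNA it was at 26.9 and 18.8 RPKM in the dark and at 1496 and 1911 RPKM under water. In K48M total RNA the 2 libraries with agreeing labels had 25.9 RPKM in the dark and 942 RPKM under water; the library titled dark with a submergence header had 932 RPKM, and its counterpart 20.9 RPKM. The K48M polysome libraries had 34.9 and 22.2 RPKM in the dark and 1697 and 1384 RPKM under water. No submerged library overlapped a dark one in any group, and the lowest submerged level was 27 times the highest dark level. By RPKM, ADH1 ranked between 3437 and 5175 among all genes in the 7 dark libraries and between 34 and 120 in the 7 submerged ones. PDC1 ranked between 8124 and 14652 in the dark and between 187 and 592 under water.

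The ADH1 response, as the log2 fold change of submerged against dark, was 5.42 ± 0.33 (SE) in Col-0 total RNA (edgeR quasi-likelihood test with Benjamini-Hochberg adjustment over all 19024 tested genes, adjusted p = 6.97e-07), a fold of 43.0. In Col-0 polysome RNA it was 6.26 ± 0.35 (edgeR adjusted p = 5.43e-07), a fold of 76.9. In K48M it was 5.19 ± 0.46 in total RNA (edgeR adjusted p = 5.46e-05) and 5.77 ± 0.34 in polysome RNA (edgeR adjusted p = 6.22e-07). Within replicate 1 alone, the log2 ratio of CPM + 0.5 in Col-0 was 4.99 in total and 5.78 in polysome RNA, and within replicate 2 it was 5.82 and 6.64. The response was thus higher in replicate 2 in both fractions of Col-0.

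PDC1 in Col-0 total RNA was at 10.5 and 3.12 RPKM in the dark and at 496 and 331 RPKM after submergence. The polysome libraries of Col-0 had it at 6.68 and 4.44 RPKM in the dark and at 283 and 494 RPKM under water. The K48M total libraries with agreeing labels had 8.65 RPKM in the dark and 307 RPKM under water, and those headed submergence and control in replicate 2 had 472 and 3.72 RPKM. The K48M polysome libraries had 4.17 and 3.00 RPKM in the dark and 288 and 334 RPKM under water. The conditions did not overlap, with the lowest submerged level at 27 times the highest dark one. The log2 fold change for Col-0 was 5.99 ± 0.50 with total RNA and 6.22 ± 0.52 with polysome RNA (edgeR adjusted p = 7.37e-06 and 8.30e-06). Single libraries moved these sizes but not the calls: the total RNA value was 5.32 without Col-0 total dark replicate 2 and 7.01 without dark replicate 1, and the polysome value 5.42 without Col-0 polysome submerged replicate 2. In K48M it was 5.15 ± 0.67 in total and 6.47 ± 0.52 in polysome RNA (edgeR adjusted p = 8.39e-04 and 5.20e-06).

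PDC2 rose too, from a higher level than PDC1 in the dark and to a lower one under water. It was at 14.4 and 27.4 RPKM in Col-0 total RNA in the dark and at 91.0 and 126 RPKM after submergence. The polysome fraction of Col-0 had it at 12.4 and 31.9 RPKM in the dark and at 121 and 194 RPKM under water. In K48M total RNA it was at 16.3 RPKM in the dark and 116 RPKM under water, and at 127 and 46.5 RPKM in the replicate 2 libraries headed submergence and control. In K48M polysome RNA it was at 15.7 and 31.7 RPKM in the dark and at 108 and 126 RPKM under water. The dark level split by replicate: 12.4 to 16.3 RPKM in the 4 libraries of replicate 1 and 27.4 to 31.9 RPKM in the 3 of replicate 2. The log2 fold change was 2.43 ± 0.26 in Col-0 total RNA (edgeR adjusted p = 4.78e-05), a fold of 5.39, and 2.87 ± 0.27 in Col-0 polysome RNA (edgeR adjusted p = 2.43e-05). In K48M it was 2.82 ± 0.37 in total RNA (edgeR adjusted p = 8.82e-04) and 2.40 ± 0.26 in polysome RNA (edgeR adjusted p = 5.80e-05). The K48M total call was lost without the replicate block (edgeR adjusted p = 0.210, of a range of 1.25e-10 to 0.210 over 20 alternatives, that with the sample titles apart).

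For the tandem genes PDC3 and PDC4 no rise was called. They lie 576 bases apart on the minus strand of chromosome 5, PDC4 at chr5:129263-131687 and PDC3 at chr5:132264-134920, with no protein-coding gene between them. PDC3 had 20 to 43 reads in the 7 dark libraries and 15 to 29 reads in the 7 submerged ones, or 2.46 to 5.36 RPKM and 1.31 to 2.56 RPKM, so that the conditions overlapped. The replicate 2 K48M total libraries headed submergence and control had 12 and 31 PDC3 reads, or 1.43 and 3.02 RPKM. Its log2 fold change in total RNA was -0.76 ± 0.39 for Col-0 and -0.80 ± 0.57 for K48M, and in polysome RNA -0.97 ± 0.42 and -0.60 ± 0.42, none of them past the threshold (edgeR adjusted p = 0.246, 0.483, 0.162 and 0.391). PDC4 had 1 to 13 reads per library, with 3 and 5 in that pair, and did not pass the filter on low counts, so no test was made of it. At these counts a change of PDC4 was not detectable.

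Reads of near-identical genes can be split between them, so the coding sequences of the 4 decarboxylases were compared in RefSeq TAIR10.1. PDC3 and PDC4 were 93.2% identical over 1767 aligned bases and PDC1 was 86.7% and 87.1% identical to them, while PDC2 was 76.1% to 77.1% identical to the others. PDC1 shared 73 identical windows of 25 bases with PDC4 and 40 with PDC3, and PDC3 and PDC4 shared 474. In the deposited tables the uniquely matched reads equalled all gene reads for each of the 7 genes in each of the 16 libraries, so no read was listed as shared with a copy.

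The makeup of decarboxylase mRNA differed between the conditions, and is given as a description. In the 7 dark libraries PDC2 made up 49.4% to 83.0% of the summed RPKM of PDC1 to PDC4 and PDC1 made up 7.85% to 36.7%. In the 7 submerged libraries PDC1 made up 69.5% to 84.1% and PDC2 15.4% to 29.8%. PDC3 went from 6.73% to 21.3% in the dark to 0.190% to 0.629% under water. The dark share of PDC1 differed between the replicates, at 18% to 36.7% in replicate 1 and 7.85% to 11.3% in replicate 2, while its submerged share was at 69.5% to 84.1% and 71.7% to 72.2%. The summed level of the 4 genes was 23.2 to 39.4 RPKM in the dark and 398 to 689 RPKM under water.

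**Figure D1:**
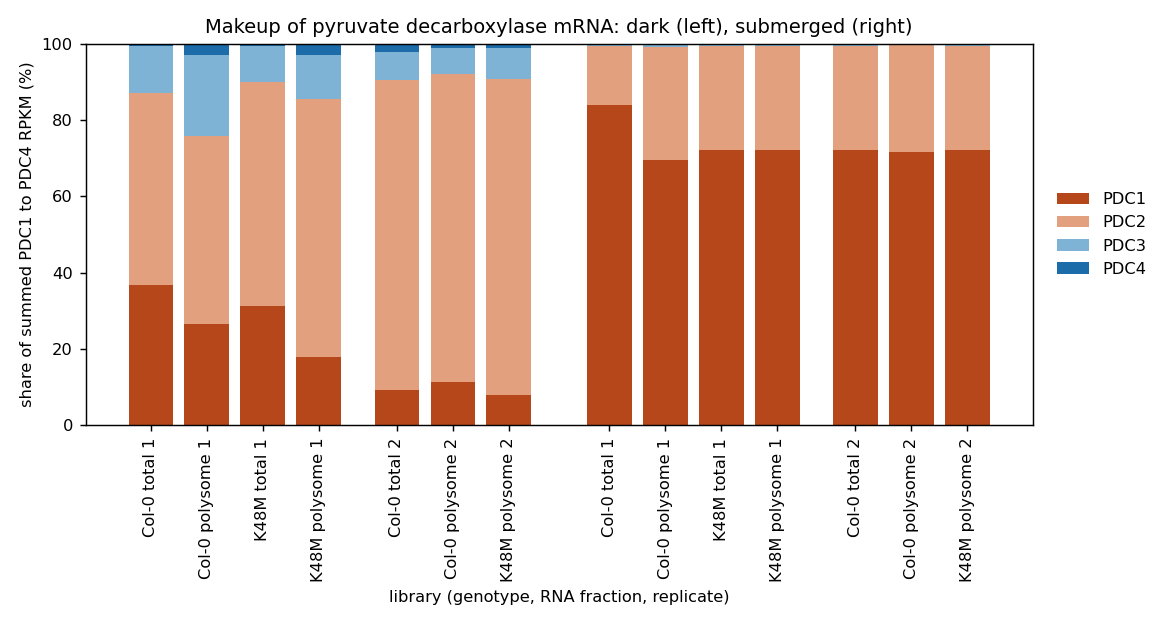
Share of each decarboxylase gene in the summed RPKM of PDC1 to PDC4 (y axis, percent), 1 bar per library of the 14 tested, dark on the left and submerged on the right, replicate 1 before replicate 2 in each condition. PDC2 is the largest part of each dark bar, at 49.4% or more, and PDC1 of each submerged bar, at 69.5% or more.

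Relative to the summed decarboxylases, ADH1 was higher under water, given as a description. The ratio of ADH1 RPKM to the summed decarboxylase RPKM was 0.477 to 1.5 in the 7 dark libraries and 1.70 to 4.27 in the 7 submerged ones. No submerged library was below a dark one. The 7 genes together took 0.00704% to 0.0179% of all gene reads in the dark and 0.234% to 0.487% under water.

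**Figure D2:**
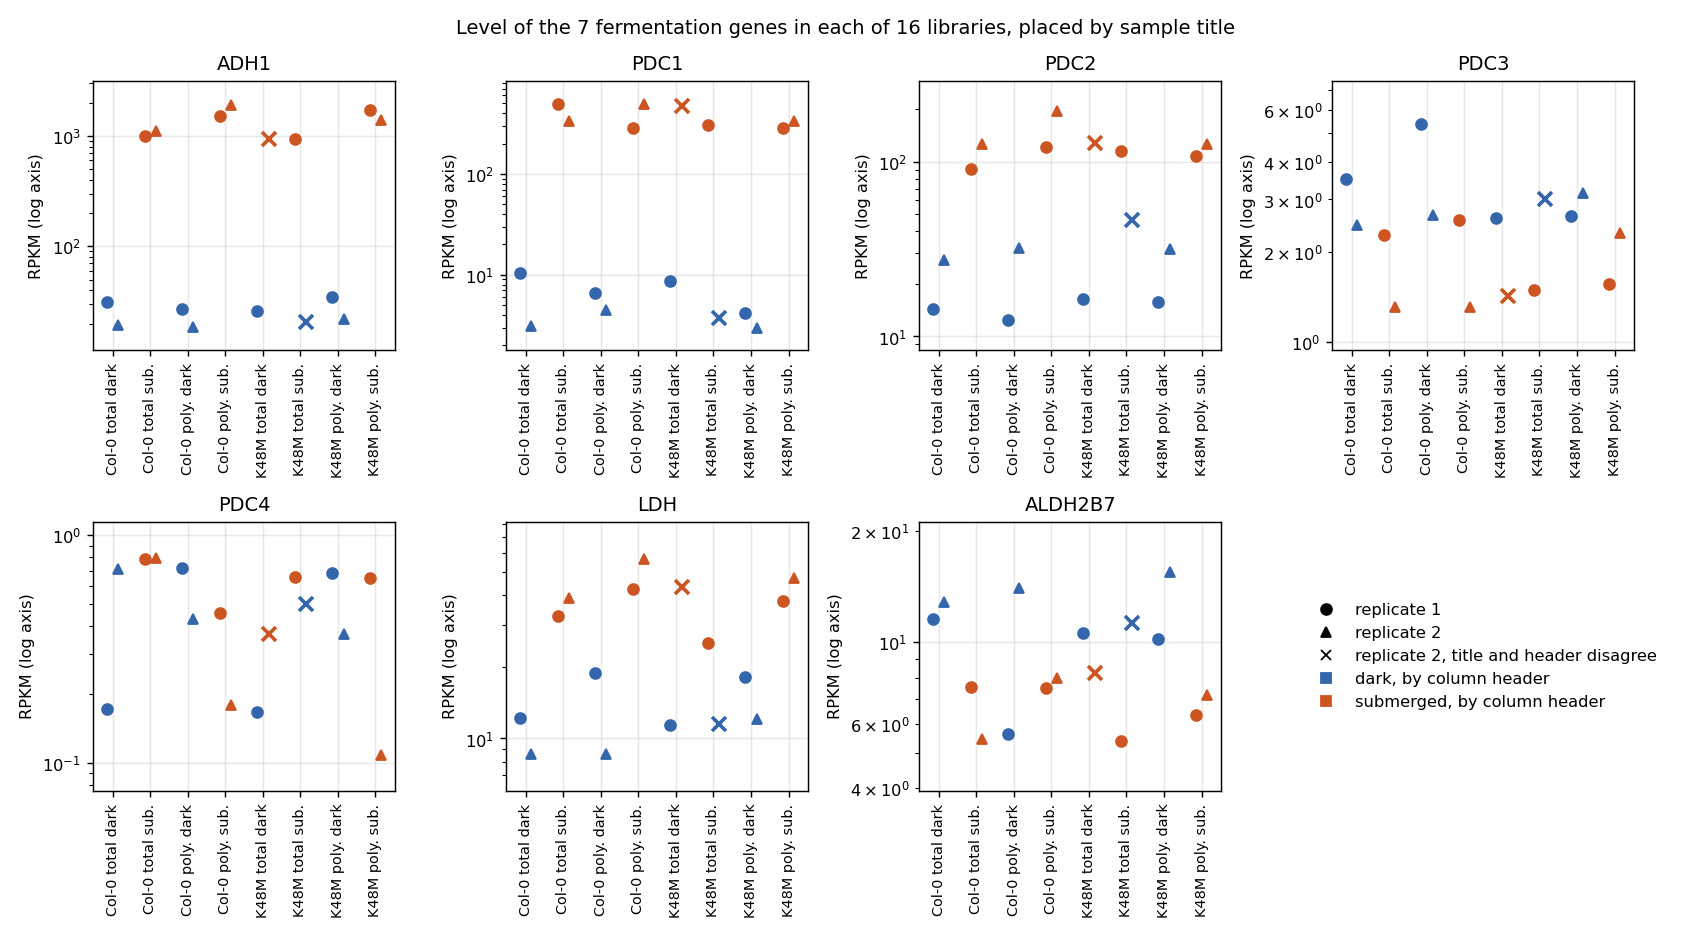
Level of each of the 7 genes (RPKM, log axis, with its own range in each panel) in all 16 libraries, placed by sample title (x axis) and coloured by the condition of the column header. Crosses are the 2 libraries whose title and header disagree; for ADH1, PDC1, PDC2 and LDH they lie on the side of their header colour.

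On the lactate side, LDH rose by a smaller factor. It was at 12.2 and 8.64 RPKM in Col-0 total RNA in the dark and at 32.6 and 38.8 RPKM after submergence. In Col-0 polysome RNA it was at 18.9 and 8.60 RPKM in the dark and at 42.6 and 57.0 RPKM under water. In K48M total RNA it was at 11.4 RPKM in the dark and 25.1 RPKM under water, and at 43.4 and 11.5 RPKM in the replicate 2 libraries headed submergence and control. In K48M polysome RNA it was at 18.2 and 12.1 RPKM in the dark and at 37.8 and 47.3 RPKM under water. Each submerged library was above each dark one, by a factor of 1.33 at the least. The log2 fold change for Col-0 was 1.80 ± 0.33 with total RNA and 1.98 ± 0.34 with polysome RNA (edgeR adjusted p = 0.00265 and 0.00219), folds of 3.49 and 3.94. In K48M polysome RNA it was 1.52 ± 0.33 (edgeR adjusted p = 0.00750), and in K48M total RNA 1.14 ± 0.46, which did not pass (edgeR adjusted p = 0.182).

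The LDH calls depended on single libraries. Without replicate 2 of the dark group, the log2 fold change for Col-0 was 1.59 with total RNA (edgeR adjusted p = 0.0616) and 1.38 with polysome RNA (edgeR adjusted p = 0.0552), both past the threshold otherwise. Without Col-0 polysome dark replicate 1 the polysome value was 2.54 and was called (edgeR adjusted p = 0.00199). In K48M polysome RNA it was 1.27 without dark replicate 2 (edgeR adjusted p = 0.128) and 1.25 without submerged replicate 2 (edgeR adjusted p = 0.0775). Over 22 alternatives, that with the sample titles apart, the adjusted p ranged for Col-0 from 2.08e-05 to 0.0616 with total RNA and from 4.97e-06 to 0.0552 with polysome RNA, and from 5.25e-04 to 0.128 for K48M polysome RNA. With all 16 libraries and the conditions of the column headers, the K48M total response was 1.57 and was called (edgeR adjusted p = 0.0132, of a range of 0.0132 to 0.554). ADH1 was at 1.43 to 2.55 times the LDH level in the dark and at 28.7 to 44.9 times that level under water, both as RPKM.

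ALDH2B7, like PDC3, had a log2 fold change below 0 in each of the 4 comparisons and no call. It was at 11.6 and 12.9 RPKM in Col-0 total RNA in the dark and at 7.53 and 5.45 RPKM after submergence. In Col-0 polysome RNA it was at 5.63 and 14 RPKM in the dark and at 7.48 and 7.97 RPKM under water, so that the groups overlapped there. In K48M total RNA it was at 10.6 RPKM in the dark and 5.40 RPKM under water, and at 8.25 and 11.3 RPKM in the replicate 2 libraries headed submergence and control. In K48M polysome RNA it was at 10.2 and 15.5 RPKM in the dark and at 6.33 and 7.16 RPKM under water. The lone low dark value came from Col-0 polysome replicate 1, the library with 22 ALDH2B7 reads and the most ribosomal RNA reads, whose part in this value was not tested. The log2 fold change in total RNA was -0.93 ± 0.31 for Col-0 and -0.97 ± 0.44 for K48M, and in polysome RNA -0.39 ± 0.32 and -0.92 ± 0.32, none past the threshold (edgeR adjusted p = 0.0697, 0.243, 0.502 and 0.0722). The Col-0 polysome value turned to 0.39 without Col-0 polysome dark replicate 2. The Col-0 total value passed in 4 of 22 alternatives, at its lowest -1.37 without Col-0 total submerged replicate 1 (edgeR adjusted p = 0.00938, of a range of 0.00938 to 0.361).

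By count, 4 of the 6 tested members rose in Col-0 total RNA, where 7.61% of all tested genes rose. Among Col-0 polysome libraries 4 of 6 rose against 6.46% of all genes, in K48M total RNA 3 of 6 against 3.41% and in K48M polysome RNA 4 of 6 against 7.73%. No member fell in any of the 4 comparisons, where 4.72%, 4.55%, 1.87% and 6.22% of all genes fell. The median log2 fold change of the 6 was 2.1, 2.42, 1.98 and 1.96 in that order, and that of all tested genes 0.01, -0.02, -0.00 and -0.01. With the column headers and all 16 libraries, 4 of 6 members rose in K48M total RNA, at log2 fold changes of 5.33 for ADH1, 6.05 for PDC1, 2.1 for PDC2 and 1.57 for LDH. With the conditions of the sample titles instead, 0 members and 0 of all genes were called in any of the 4 responses, and the K48M total value was -0.24 for ADH1 and -0.96 for PDC1.

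**Figure D3:**
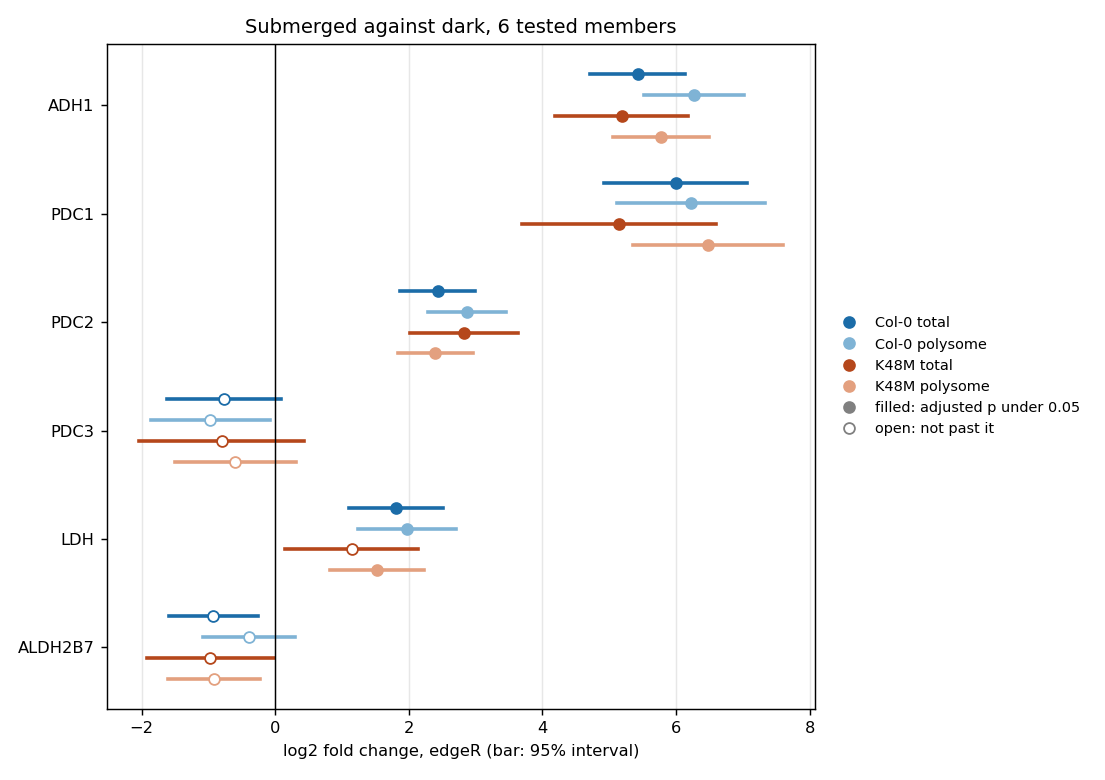
Log2 fold change of submerged against dark (x axis) with its 95% interval for the 6 tested members in 4 comparisons; filled points passed an adjusted p under 0.05. ADH1 and PDC1 lie between 5.15 and 6.47, PDC2 between 2.40 and 2.87, LDH between 1.14 and 1.98, and PDC3 and ALDH2B7 below 0.

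The genotype comparison asked whether the K48M kinase changes these genes or their response. Between K48M and Col-0, 0 of 6 members differed in any of the 4 fractions and conditions (edgeR adjusted p from 0.715 to 1), where 0.00526% of all tested genes, 1 gene, were called in each. At an unadjusted p under 0.05 stood 0 members, and 1781 of 19024 genes in total RNA in the dark, 310 in polysome RNA in the dark, 1450 in total RNA under water and 431 in polysome RNA under water. For ADH1 the log2 difference, K48M minus Col-0, was -0.07 ± 0.35 in total and 0.32 ± 0.29 in polysome RNA in the dark, and -0.31 ± 0.35 and -0.17 ± 0.27 under water. The response itself, K48M minus Col-0, differed by -0.24 for ADH1 in total RNA with a 95% interval of -1.27 to 0.79, and by -0.49 in polysome RNA with an interval of -1.35 to 0.37. For PDC1 the difference was -0.84 with an interval of -2.39 to 0.71 in total and 0.25 with an interval of -1.12 to 1.63 in polysome RNA. For PDC2 it was 0.39 with an interval of -0.54 to 1.33 and -0.48 with an interval of -1.25 to 0.29, and for LDH -0.66 with an interval of -1.87 to 0.55 and -0.46 with an interval of -1.46 to 0.55. No response difference was called among the members or among all genes (0 of 19024 in either fraction, edgeR), where 487 genes in total and 241 in polysome RNA, and 0 members, had an unadjusted p under 0.05. DESeq2 also called 0 members. With all 16 libraries and the column headers, the total RNA difference was -0.08 for ADH1, 0.07 for PDC1, -0.30 for PDC2 and -0.21 for LDH, so that those of PDC1 and PDC2 turned. Among the members' values, 8 of 12 response differences and 14 of 24 genotype differences changed sign in at least 1 alternative, so no direction is read from them. The polysome interval of PDC1 leaves room for a difference of more than 1 log2 unit either way, and its total RNA interval for one below -1. The intervals of ADH1, PDC2 and LDH also pass 1 log2 unit on 1 side in each fraction. For PDC3 the intervals were -1.53 to 1.45 in total and -0.90 to 1.65 in polysome RNA. For ALDH2B7 they were -1.20 to 1.11 and -1.50 to 0.45.

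Polysome loading was read as the polysome level against the total level of the same condition. Polysome and total libraries were TMM-scaled together, so each value is relative to the bulk of genes. The median over all tested genes under water was -0.03 in Col-0 and 0.00 in K48M. A change of loading shared by most transcripts cannot be seen in these values. Under water ADH1 was higher in polysome than in total RNA by 0.70 ± 0.27 on the log2 scale in Col-0 and by 0.83 ± 0.35 in K48M, neither past the threshold (edgeR adjusted p = 0.162 and 0.188; unadjusted p = 0.0231 and 0.0343). In the dark the same difference was -0.14 ± 0.29 in Col-0 and 0.24 ± 0.36 in K48M. Within the replicates of Col-0, ADH1 under water was higher in the polysome library by 0.58 in replicate 1 and by 0.78 in replicate 2. Without Col-0 total submerged replicate 2 the Col-0 value was 0.99 and was called (edgeR adjusted p = 0.0411, of a range of 0.0411 to 0.677). The change of loading with submergence was 0.84 ± 0.40 for ADH1 in Col-0 (unadjusted p = 0.0539, edgeR adjusted p = 1) and 0.59 ± 0.48 in K48M.

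PDC1 loading went in opposite directions in the replicates of Col-0: under water the log2 ratio of polysome to total CPM + 0.5 was -0.81 in replicate 1 and 0.58 in replicate 2. Its loading change in K48M was 1.32 ± 0.74 (unadjusted p = 0.0976, edgeR adjusted p = 1) and rests on 1 total library per condition; with all 16 libraries and the column headers it was 0.44. For PDC2 under water the log2 difference of polysome against total RNA was 0.51 ± 0.24 in Col-0 and -0.34 ± 0.30 in K48M, neither past the threshold (edgeR adjusted p = 0.250 and 0.537). The K48M value rests on 1 total library, was -0.05 with all 16 libraries and the column headers, and turned to 0.02 without the replicate block. Of the members' values, 13 of 24 differences of polysome against total RNA and 7 of 12 loading changes changed sign in at least 1 alternative. In replicate 1 the column headers give the polysome libraries a different lane tag from the total libraries. In replicate 2 all libraries carry the same tag. The lane tag and the RNA fraction cannot be told apart in replicate 1, and the part of the lane was not tested. Altogether 0 of 6 members were called for a difference of polysome against total RNA in any condition (edgeR and DESeq2), where 2.41% of all tested genes were called in Col-0 dark, 2.45% in Col-0 submerged, 5.44% in K48M dark and 2.88% in K48M submerged samples. At an unadjusted p under 0.05 stood 1 of 6 members, ADH1, in each genotype under water, where 4039 of 19024 genes in Col-0 and 4244 in K48M did, and 0 members in the dark, where 3810 and 4749 genes did. For the loading change, 0 members and 0 of all genes were called in either genotype, with 285 genes in Col-0 and 559 in K48M, and 0 members, at an unadjusted p under 0.05.

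**Figure D4:**
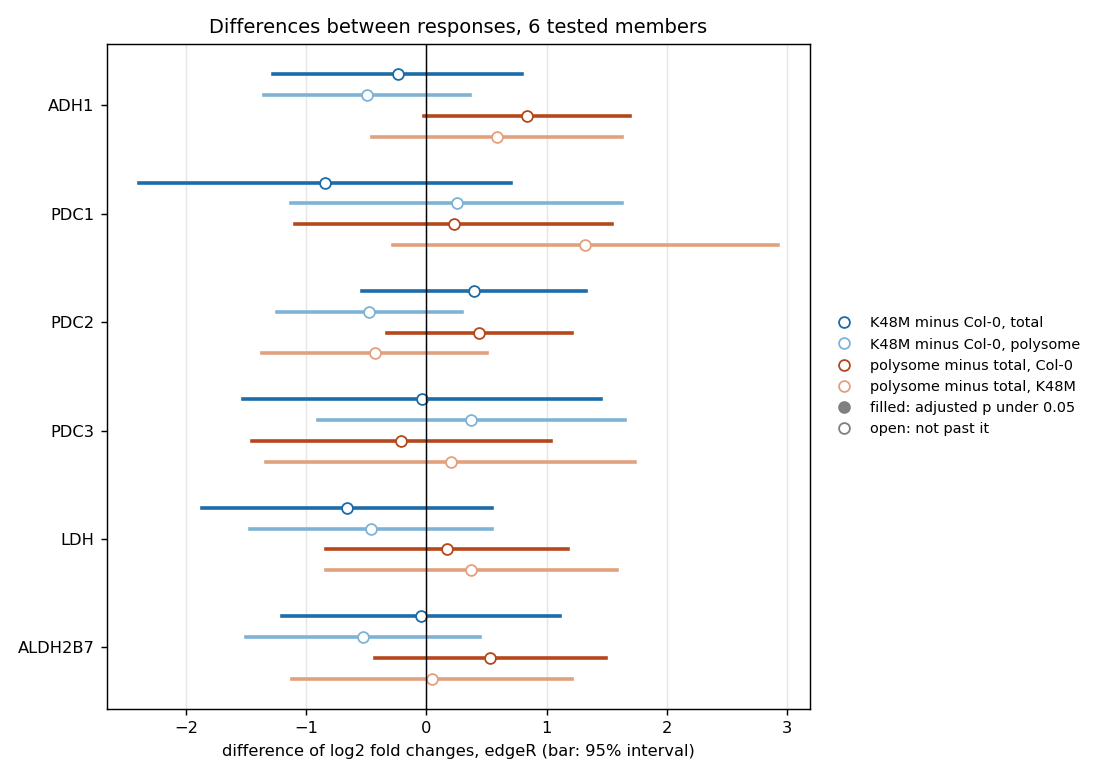
Differences of the log2 fold changes (x axis) with 95% intervals for the 6 tested members: K48M minus Col-0 in each fraction, and polysome minus total in each genotype. The interval of each of the 24 values covers 0, and the widest ones belong to PDC1 and PDC3.

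The authors' deposited table of fold changes adds i4g1-2 and a line it names 4SA15, and lists 6 of the 7 genes. In total mRNA the authors' deposited table gives log2 fold changes for ADH1 of 5.86 in Col-0, 5.35 in K48M, 5.53 in i4g1-2 and 5.78 in 4SA15. The p-values between lines in that table share the Col-0 values. In polysome mRNA the authors' deposited table gives 6.01, 4.74, 5.01 and 5.21 in the same order, so that each of the 3 lines lies below Col-0. PDC1 in the authors' deposited table was at 6.55 in Col-0 polysome mRNA and at 5.25, 5.61 and 5.64 in K48M, i4g1-2 and 4SA15. PDC2 was at 2.33 in Col-0 and at 1.09, 1.53 and 1.48 in the 3 lines, and LDH at 2.03 in Col-0 and at 0.27, 1.3 and 1.0, by the authors' deposited table. The authors' deposited table gives p-values for K48M against Col-0 in polysome mRNA of 0.0263 for ADH1, 0.00500 for PDC1, 0.0978 for PDC2 and 0.00411 for LDH, with no test named and no adjustment stated. Over 8388 listed transcript models, the median of the same p-value in the authors' deposited table was 0.0782. The value of PDC2 was above that median, and those of ADH1, PDC1 and LDH were below it.

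The whole list moved in the same columns. Over its 8391 transcript models, the median log2 fold change in polysome mRNA in the authors' deposited table was -0.29 in Col-0, -1.51 in K48M, -0.94 in i4g1-2 and -1.01 in 4SA15, against -0.13 to -0.06 in total mRNA. Relative to these medians, ADH1 in polysome mRNA of the authors' deposited table was at 6.31 in Col-0, 6.24 in K48M, 5.95 in i4g1-2 and 6.22 in 4SA15. PDC1 was at 6.85, 6.76, 6.55 and 6.65, PDC2 at 2.62, 2.59, 2.47 and 2.49, and LDH at 2.32, 1.78, 2.24 and 2.03, from the same authors' deposited table. How the list was normalised and which models it was limited to is not given in the sources used here. In the authors' deposited count tables, their own test gave ADH1 a fold of 54.7 in K48M polysome RNA, or 5.77 as log2, and LDH a fold of 2.86 with a corrected p-value of 0.188. For LDH with total RNA, the authors' own test gave corrected p-values of 0.0841 for the wild type and 0.173 for K48M. With wild-type polysomes it gave LDH 0.168. None of these LDH values was under 0.05, so the authors' own test made no LDH call.

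On the side of substrate supply, the counts below stand beside 7.61%, 6.46%, 3.41% and 7.73% of all tested genes that rose in Col-0 total, Col-0 polysome, K48M total and K48M polysome RNA. Of the 6 sucrose synthases, enzymes that split sucrose into UDP-glucose and fructose, 5 were tested and 2 rose in each of the 4 comparisons. SUS4 rose by 5.63 ± 0.33 and SUS1 by 4.36 ± 0.31 in Col-0 total RNA (edgeR adjusted p = 6.97e-07 and 2.15e-06), whereas SUS6, SUS5 and SUS3 were at 0.22, -0.08 and -0.22. The median of the 5 was 0.22, beside 0.01 over all tested genes. Of 20 cytosolic glycolysis genes, 4 rose and 0 fell in Col-0 total RNA, 5 rose with Col-0 polysomes, 4 in total RNA of K48M, and 5 rose and 1 fell in its polysome RNA, with a median of -0.05 in Col-0 total RNA. The 3 with the largest values were PFK6, a phosphofructokinase, at 2.99 ± 0.30, FBA6, a fructose-bisphosphate aldolase, at 1.78 ± 0.24, and the pyruvate kinase AT2G36580 at 1.75 ± 0.19 (edgeR adjusted p = 2.96e-05, 3.27e-04 and 4.73e-05). The 3 with the lowest values were the pyruvate kinase AT5G56350, at -0.55, iPGAM1, a phosphoglycerate mutase, at -0.36, and the enolase ENO2, at -0.34, none of them called in Col-0 total RNA. The gene that fell in K48M polysome RNA was iPGAM1, by 0.67 on the log2 scale (edgeR adjusted p = 0.0447).

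Mitochondrial pyruvate dehydrogenase competes for the same pyruvate. Of 9 genes of this complex and its kinase, 0 were called in any of the 4 responses (edgeR), with medians of -0.03, 0.07, 0.21 and 0.04. In Col-0 total RNA they ran from -0.50 for the E2-3 subunit to 0.16 for the E2-1 subunit, with PDK, the kinase that switches the complex off, at -0.03. Both alanine aminotransferases, which turn pyruvate into alanine, rose in all 4 comparisons: AlaAT1 by 2.89 ± 0.24 and AlaAT2 by 1.25 ± 0.22 in Col-0 total RNA (edgeR adjusted p = 7.51e-06 and 0.00229). Their median of 2.07 in Col-0 total RNA stood beside 2.1 for the fermentation genes.

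Relatives of the members are given beside the same shares of all genes, and no difference between the lists was tested. Of 8 other genes of the alcohol dehydrogenase family, 7 were tested and 0 were called in any of the 4 responses (edgeR); the extremes in Col-0 total RNA were 0.32 for AT1G22430 and -1.44 ± 0.69 for AT4G22110. D-LDH and the glycolate oxidase GOX3, which can oxidise lactate, were at -0.03 and -0.59 in Col-0 total RNA and were not called. Of 7 genes for other aldehyde dehydrogenases and acetate use, 1 rose in Col-0 total RNA, ALDH7B4, by 1.39 ± 0.23 (edgeR adjusted p = 0.00166), and it rose in the other 3 comparisons as well, by 1.83, 2.13 and 1.74. ALDH2C4 was the second call in Col-0 polysome RNA, at 0.69 ± 0.20 (edgeR adjusted p = 0.0381). ALDH2B4, the mitochondrial relative of ALDH2B7, was at 0.22 and the acetyl-CoA synthetase ACS at 0.29 in Col-0 total RNA, and ALDH3F1, ALDH3I1 and ALDH3H1 were at -0.24, -0.10 and -0.07.

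The 5 ERF-VII factors are transcription factors that are more stable when oxygen is low and that act upstream of ADH1 and PDC1. Of these, 3 rose in Col-0 total RNA. HRE2 (ERF71) rose by 5.83 ± 0.38, HRE1 (ERF73) by 3.39 ± 0.22 and RAP2.2 by 1.06 ± 0.31 (edgeR adjusted p = 9.89e-07, 8.90e-07 and 0.0404). RAP2.3 and RAP2.12 were at 0.02 and -0.02. RAP2.2 was not called in K48M total RNA, at 0.84 ± 0.44 (edgeR adjusted p = 0.315). Of the 5 root markers, 2 fell in Col-0 total RNA, THAS1 to -2.66 and PYK10 to -1.08 as log2 fold change (edgeR adjusted p = 3.23e-04 and 0.0147), and 0 of 4 shoot markers were called in any response. In each other response 1 of the 5 root markers fell. The root marker EXPA7 was at 12.4 and 12.1 CPM in Col-0 polysome dark and at 14.7 and 13.1 CPM in Col-0 polysome submerged libraries. In Col-0 total RNA it was lower under water, at 13.04 and 11.29 CPM in the dark and 12.28 and 6.62 CPM submerged. It went from 9.54 to 6.28 CPM in K48M total RNA, and its K48M polysome replicates went in opposite directions. The other root markers, PYK10, BGLU22, THAS1 and COBL9, were lower under water in each replicate of Col-0 polysome RNA.

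**Figure D5:**
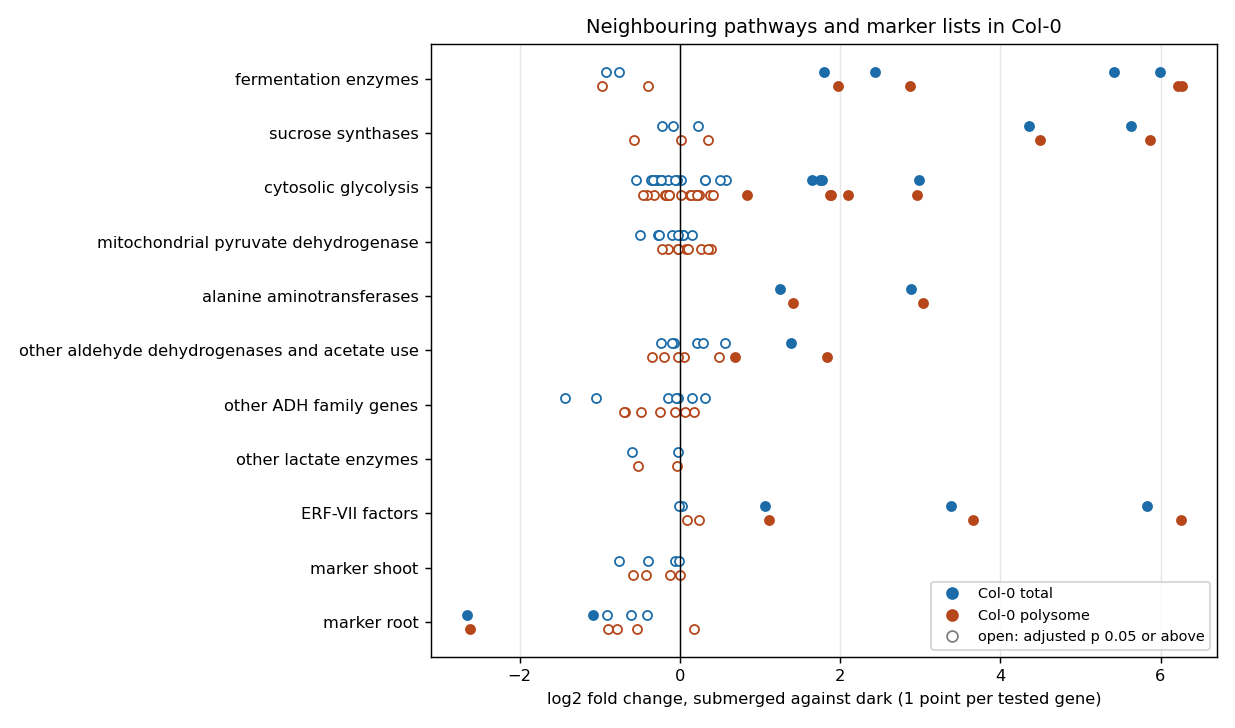
Log2 fold change of submerged against dark in Col-0 total and polysome RNA (x axis), 1 point per tested gene, for the fermentation genes (top row), neighbouring pathways and the shoot and root markers; filled points passed an adjusted p under 0.05. The largest values outside the fermentation genes belong to HRE2 and SUS4, at 5.83 and 5.63 in total RNA.

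Likeness of profile was measured as the root mean square difference of log2(CPM + 1), each gene centred on its own mean, over the 14 libraries. The genes most like ADH1 were AT2G14247, at 0.33, AT4G24110, at 0.42, and AT4G10265, at 0.49, with responses of 6.10, 5.26 and 6.43 in Col-0 total RNA. The gene most like PDC1 was ADH1, at 0.51, followed by AT2G17850 and AT2G14247, both at 0.55. PDC2 was most like AT1G51790, AT5G06570 and AT3G13310, at 0.31, 0.31 and 0.32, and LDH most like AT2G31390, at 0.19, AT2G42060 and AT3G45730, both at 0.27. PDC3 lay nearest ZIP4, AT2G36290 and AT1G10780, at 0.12 to 0.21, and ALDH2B7 nearest AT5G38290, AT5G25840 and AT5G20550, at 0.18 to 0.21. The profiles share libraries and a strong response to submergence, and genes of small change are near many others by this measure.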

How the data were processed

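The deposited tables of the authors hold raw read counts per transcript model, both all and uniquely matched gene reads, with model lengths; the labels name TAIR 10, per the submitters' processing notes, and whether strand was used is not given in the sources used here. They also hold the authors' own test, as a signed fold (a score below 0 where lower) with a corrected p-value, and the authors deposited a list of log2 fold changes per line with p-values. Counts of 41660 models were summed to 33592 genes. The 11 rows per table with no identifier, at most 0.0084% of reads, were left out. Genes with enough reads (edgeR filterByExpr over 16 libraries, minimum count 10, minimum total 15) numbered 19024. edgeR 4.0.16 in R 4.3.3 fitted TMM-scaled counts (factors 0.558 to 1.31) with a term per group and a block for the library set, on 14 libraries with 5 residual degrees of freedom; the K48M total groups hold 1 library each, assumed to vary like the others. A call is a Benjamini-Hochberg adjusted p under 0.05 over all tested genes. The replicate number is also the library set in the column headers, and same-numbered libraries deviated together in all 15 group pairs, with correlations over 18830 genes of 0.33 to 0.679, so the block was kept. The design text speaks of independent biological repeats, and p-values measure only the spread between these libraries. The common biological coefficient of variation was 18.8%.

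The members and gene lists were chosen with earlier results of these data known. Named genes are all members, in each list up to the 3 largest and 3 smallest Col-0 total responses, and the 3 genes nearest each member's profile. Sequences come from RefSeq TAIR10.1 with its own annotation, and no coordinates from the deposited files were combined with it. The fit was tested on simulated data in which genes changed only in the Col-0 total response and all genes had the same spread. No other comparison was simulated with a change. Alternatives were a DESeq2 1.42.0 test, DESeq2 size factors, no low-count filter, unique reads, no ribosomal RNA genes, no replicate block, other condition labels and each library left out. The read counts of the 24 other samples were not analysed here.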

Additional observations from a re-analysis of the deposited data

How the results depend on the processing

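Of 2148 recomputed fold changes of the members, 2115 kept their side of the threshold, 20 lost a call, 11 gained one and 2 reversed. Direction was compared here only for values called in the main fit, so the 2115 include uncalled values that changed sign. With the conditions of the sample titles, 0 members and 0 of all genes were called in each response, and the K48M total response of ADH1 was -0.24 and that of PDC1 -0.96; the cause was not tested. With the column headers and all 16 libraries, 1475, 1212, 1653 and 1567 genes were called in Col-0 total, Col-0 polysome, K48M total and K48M polysome RNA, against 2344, 2093, 1004 and 2653 in the 14 libraries; LDH in K48M total RNA gained a call. Without the replicate block these counts were 471, 369, 54 and 509; the call of PDC2 in K48M total RNA was lost (2.82, adjusted p = 0.210 by edgeR), as was that of LDH in K48M polysome RNA (1.5, adjusted p = 0.0702 by edgeR). The block was kept because same-numbered libraries deviated together, and leaving it out changed no other member's call. With the column headers and no replicate block, an alternative chosen after seeing the data, the counts were 566, 478, 641 and 622, PDC2 in K48M total RNA was at 1.95 (edgeR adjusted p = 0.0796) and LDH there at 1.57 (edgeR adjusted p = 0.0396). Without the low-count filter ALDH2B7 in Col-0 total RNA was called, at -0.93 (edgeR adjusted p = 0.0463). Leaving out each library in turn gave 966 to 3021, 715 to 3060, 753 to 1945 and 920.0 to 3810 genes called in the same order, and 0 to 1 members called for polysome against total RNA in Col-0 under water. ALDH2B7 was called in 4 such fits in K48M polysome RNA (edgeR adjusted p = 0.0220 to 0.0353). The ADH1 and PDC1 responses were called in each alternative but that of the sample titles. The 1 to 13 reads of PDC4 and 12 to 43 reads of PDC3 per library limit what could be seen for them.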
